A study of Sus scrofa with 40 samples.

Results

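The 10 genes of calcium release and egg activation described here are 10 of the 38794 named rows that both deposited tables hold: ITPR1, ITPR2, ITPR3, STIM1, STIM2, ORAI1, ATP2A2, CAMK2D, CAMK2G and PPP3CA. They were chosen by name, and each of the 10 had a row in both tables. The cells were mature pig oocytes at metaphase II from commercial hybrid pigs (Large White, Duroc and Berkshire), labelled as deficient or normal in mitochondrial DNA (mtDNA). Pooled oocytes gave 11 libraries, 5 deficient and 6 normal, which were extracted with a PicoPure column and amplified by single primer isothermal amplification (SPIA). The series' design text gives 5 pools for each state, but 6 pools carry the normal label and all 6 were used. Single oocytes gave 29 libraries, 14 deficient and 15 normal, which were extracted in the tube and made with the SoLo kit. The labels give no animal, age or hormone treatment and no number of oocytes per pool, and the label BCB in some titles is not explained.

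A fertilised egg is activated by repeated rises in cytosolic calcium. The sperm's phospholipase C makes inositol trisphosphate (IP3), which opens IP3 receptors in the endoplasmic reticulum (ER). The store is refilled by the ER calcium pump and by entry through the plasma membrane, where STIM proteins sense the emptied store and open the ORAI channel. Calmodulin carries the signal to CaM kinase II and to the phosphatase calcineurin, which in vertebrate eggs act on the machinery that holds metaphase II.

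The pools held 14480546 to 29538982 counts each and the single oocytes 706929 to 3067523, and the 10 genes together took 8904 to 28903 counts in a pool and 237 to 861 in an oocyte. One transcript, LOC102158401, took 46.7 to 76.0% of the counts of a single oocyte and at most 0.0275% of a pool's. Deficient pool A2 and normal pool A3 had the fewest genes with a count, 14207 and 15057, where the 11 pools reached 19245. Oocyte markers summed to 1643 to 3225 counts per 1e6 counts (CPM) in the sums of single oocytes defined below and to 2839 to 10131 CPM in the pools. Of 19 cumulus and granulosa markers the pools held 4 at a mean of 10 CPM or more, VCAN, INHBA, GREM1 and KITLG, the list summed to 111 to 229 CPM in deficient pools and 139 to 206 CPM in normal pools, and FOXL2, AMH, LHCGR and INHA were at 0. The 7 blood markers summed to 0.138 to 5.68 CPM in the pools. CPM here is a count scaled to the library's total. It is not corrected for transcript length, so levels are compared between libraries and not between genes. Where genes of one family are set side by side, the values describe counts and not transcript levels.

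Between mtDNA states, none of the 10 genes passed the test in pools. The gene that stood furthest from equality relative to its error was ITPR1, the type 1 IP3 receptor and the main release channel of mammalian eggs, which averaged 192 ± 37.8 CPM over 5 deficient pools and 147 ± 24.3 CPM over 6 normal pools (means ± SD). Of the 10 genes, 7 had a lower fitted level in deficient pools and 3 had a higher one. Among all genes tested there, 6793 were lower and 6747 higher. Over all 13540 genes tested with edgeR's quasi-likelihood test, 0 passed an adjusted p of 0.05, which is 0% called. At an unadjusted p under 0.05 there were 726, a background of 5.36%, and 1 of the 10 genes. The median log2 difference of the 10, deficient over normal, was -0.06, beside -0.0019 over all genes tested. DESeq2 called 58 genes on the same pools, none of them among the 10. Nothing in the labels says that pools or oocytes came from separate animals, so these p-values measure only the spread between samples, which may be technical. In a pool, fewer cells with a transcript and less transcript per cell cannot be told apart.

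ITPR1 stood at 247 CPM in deficient pool A1, 173 in A2, 145 in A3, 190 in B2 and 203 in B4, against a lowest value of 109, a median of 158 and a highest of 169 CPM in the normal pools. In all, 4 of the 5 deficient pools lay above every normal pool, and A3 lay within the normal range. How many of all genes tested had 4 deficient pools above every normal pool was not counted, so this is not read as particular to ITPR1. The log2 difference was 0.53 (SE 0.17, unadjusted p = 0.00694, adjusted p = 0.787 with edgeR), and over the alternatives the adjusted p ran between 0.159 and 0.999. The titles also carry a letter, A or B, whose meaning is not stated. Among the A pools ITPR1 averaged 188 ± 52.7 CPM in deficient pools and 132 ± 27.3 CPM in normal pools (SD, n = 3 each). Among the B pools it averaged 196 ± 9.43 CPM over 2 deficient pools and 162 ± 7.17 CPM over 3 normal pools (SD).

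The other 2 IP3 receptor genes had fewer counts than ITPR1 in the pools, and these counts are not per length. ITPR2, the type 2 receptor, stood at 1.58, 2.76, 2.16, 2.42 and 1.01 CPM in deficient pools A1, A2, A3, B2 and B4, against 0.372, 2.21 and 5.13 CPM as the lowest, median and highest of the normal pools. All deficient values lay inside the normal range, and the log2 difference was -0.30 (SE 0.65, adjusted p = 0.963, edgeR); it turned to 0.21 without normal pool A3. ITPR3, the type 3 receptor, stood at 9.59, 9.67, 3.18, 20.5 and 6.42 CPM in the same deficient pools, against 5.23, 14.7 and 30.5 CPM in normal pools. The groups overlapped and only deficient A3 lay under the normal range, with a log2 difference of -0.41 (SE 0.45, adjusted p = 0.925, edgeR). Leaving out 1 pool gave -0.77 without deficient B2, -0.19 without deficient A3 and -0.14 without normal B2, and with the number of genes detected as a covariate it was -0.033.

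Of the calcium entry genes, STIM1, a sensor of the emptied store, was at 4.10, 0.0691, 4.10, 8.13 and 7.17 CPM in deficient pools A1, A2, A3, B2 and B4, against 1.01, 3.79 and 8.76 CPM as the lowest, median and highest of the normal pools. The value of deficient A2 rests on 1 count, and the other 4 lay within the normal range. Its log2 difference was 0.27 (SE 0.66, adjusted p = 0.967, edgeR). STIM2, a second sensor that responds to smaller losses of stored calcium, was at 17.6, 7.87, 9.97, 9.65 and 22.8 CPM in deficient pools, against 15.9, 18.1 and 22.7 CPM in normal pools. Of the deficient pools 3 lay under every normal pool while B4 lay just above them all, and the log2 difference of -0.34 (SE 0.28, adjusted p = 0.922, edgeR) did not pass. It was -0.58 without deficient B4 and -0.22 without deficient B2. The coefficient of variation of STIM2 was 47.0% over deficient pools and 14.6% over normal pools.

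ORAI1, the channel that STIM proteins open, had the largest negative difference of the 10. It stood at 3.63, 1.24, 0.441, 4.61 and 0.704 CPM in deficient pools A1, A2, A3, B2 and B4, against 1.10, 3.77 and 13.4 CPM as the lowest, median and highest of the normal pools. Of the deficient pools 2 lay under the normal range and the rest lay inside it. The log2 difference was -1.15 (SE 0.65, unadjusted p = 0.0974, adjusted p = 0.921, edgeR). It was -0.68 without normal pool B2, which held 13.4 CPM, and -0.48 with the number of genes detected as a covariate. The 18S ribosomal RNA took 0.177 to 0.441% of the counts in deficient pools and 0.175 to 1.30% in normal pools, the highest in normal B2, and its part in the result was not tested.

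ATP2A2, the ER calcium pump SERCA2, stood at 703, 343, 545, 574 and 850 CPM in deficient pools A1, A2, A3, B2 and B4, against 451, 691 and 785 CPM as the lowest, median and highest of the normal pools. Deficient A2 was below and deficient B4 above all normal pools. The fitted log2 difference was -0.01 (SE 0.18, adjusted p = 0.996, edgeR).

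The effector genes other than PPP3CA had differences well within their errors. CAMK2D, the delta chain of CaM kinase II, ranged over 44.6 to 64.9 CPM in deficient pools and 50.6 to 75.7 CPM in normal pools, and CAMK2G, the gamma chain on which egg activation depends in mouse, over 19.7 to 32.2 CPM in deficient pools and 16.8 to 39.9 CPM in normal pools. Their log2 differences were -0.10 (SE 0.18) and -0.03 (SE 0.23), and both sets of groups overlapped. PPP3CA, the alpha catalytic chain of calcineurin, was at 1.44, 1.45, 0.309, 1.48 and 1.41 CPM in deficient pools A1, A2, A3, B2 and B4, against 0, 0.645 and 1.18 CPM as the lowest, median and highest of the normal pools. In this gene, as in ITPR1, 4 deficient pools lay above every normal pool, and how many of all genes do so was not counted. A pool held at most 38 counts of PPP3CA, and normal A3 held 0. The log2 difference of 1.17 (SE 0.83, unadjusted p = 0.177, adjusted p = 0.921, edgeR) did not pass.

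**Figure D1:**
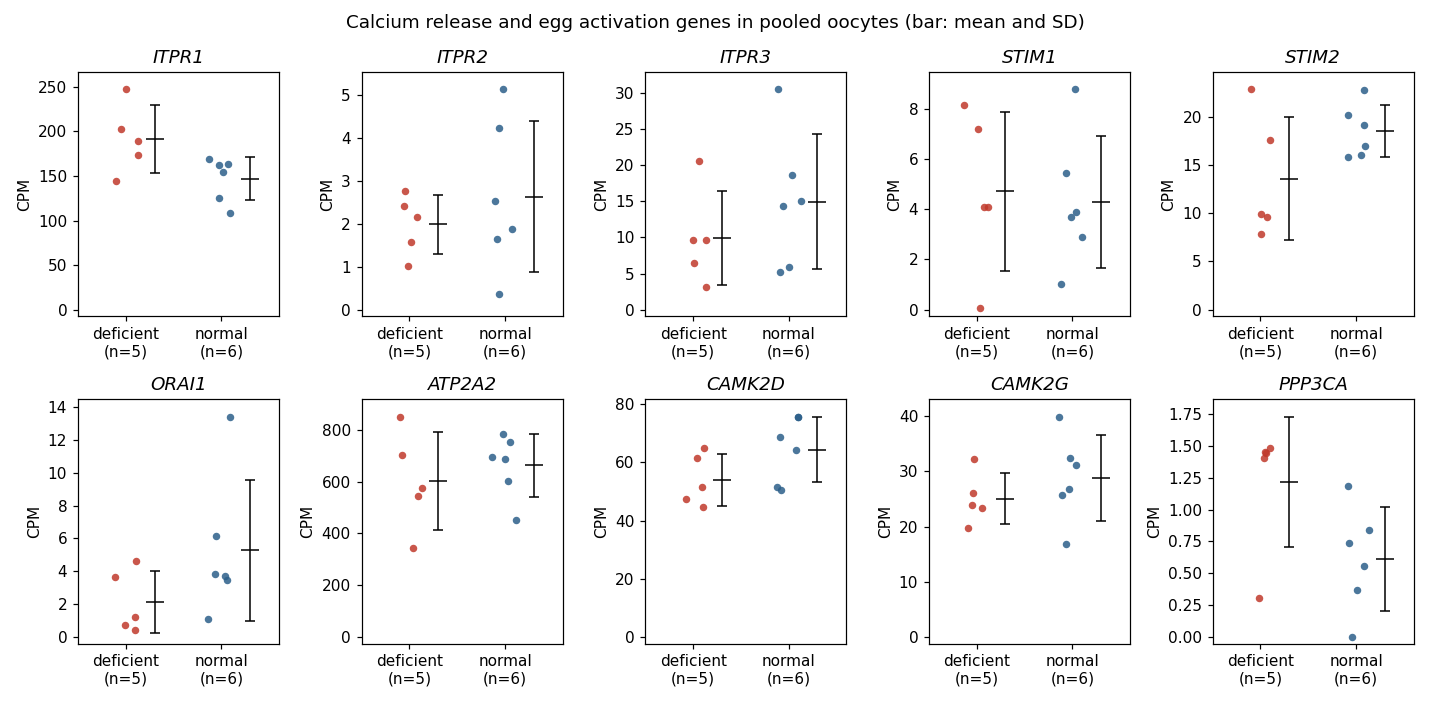
CPM of each gene in each pool (points), with deficient pools on the left and normal pools on the right of each panel and the mean and SD as a bar. In ITPR1 and PPP3CA, 4 of 5 deficient pools lie above all 6 normal pools, and the groups overlap in all 10 panels. How many of all genes have 4 deficient pools above every normal pool was not counted.

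Some pools were often the lowest of their state among the 10 genes. Normal A3 was the lowest of the 6 normal pools for 8 of the 10 genes, and deficient A3 was the lowest of the 5 deficient pools for 5. How often these pools were lowest over all genes was not counted, so this is not read as a trait of the 10. Normal A3 also had the fewest genes with a count among normal pools, 15057, and the lowest sum of oocyte markers, 2839 CPM. ATP2A2 had a coefficient of variation of 31.3% over deficient pools and 18.2% over normal pools. The same measure was 16.4% over deficient pools and 17.4% over normal pools for CAMK2D, and 88.2% over deficient pools and 81.5% over normal pools for ORAI1.

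In single oocytes, counts were added up within each state and leading title number, which gave 4 deficient sums and 3 normal sums. Of the 10 genes, 9 passed the filter on low counts, and 0 passed the test, as did 0 of all 11964 genes tested with edgeR (0% called). Below an unadjusted p of 0.05 lay 231 genes, or 1.93%, and none of the 9. DESeq2 called 2 genes, none of them among the 9. Title numbers 2, 3 and 4 occur in both states, but the labels do not say what the number stands for. With it as a replicate block on 6 sums edgeR called 2 genes, none of them among the 8 members tested there. The 9 genes had a median log2 difference of -0.06, beside -0.0018 over all genes tested, with 4 higher and 5 lower in deficient sums. Among all genes tested there, 5948 were higher and 6016 lower.

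ITPR1 ranged over 13.3 to 72.9 CPM with a median of 34.6 in the 14 deficient oocytes, and over 11.6 to 59.9 CPM with a median of 25.97 in the 15 normal oocytes. Only 2 deficient oocytes exceeded every normal one and the rest overlapped. Its sums were 35.5, 33.9, 33.2 and 45.8 CPM for deficient numbers 1 to 4, against 40.1, 26.9 and 24.1 CPM for normal numbers 2 to 4, and the log2 difference was 0.08 (SE 0.26, adjusted p = 1.00, edgeR). The column names carry 2 dates, 17 and 22 September. Sums 1 and 3 hold oocytes of the first date alone and sum 2 of the second alone, while sum 4 mixes 3 of the first and 4 of the second in deficient oocytes and 5 and 2 in normal oocytes, so the sums follow the date in part. With each oocyte as a sample the difference was -0.0065 within the first date and 0.26 within the second.

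LOC102158401 took 58.5 ± 6.71% of the counts in deficient oocytes (SD, n = 14) and 64.2 ± 5.20% in normal oocytes (SD, n = 15). A gene's CPM moves against that share, and its part in the CPM differences was not tested; the fitted differences use TMM factors. ATP2A2, for example, averaged 140 ± 49.2 CPM in deficient oocytes and 116 ± 32.8 CPM in normal oocytes, while its fitted log2 difference over the sums was 0.12 (SE 0.20, adjusted p = 1.00, edgeR).

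The remaining release and entry genes overlapped between states. ITPR3 ranged over 37.3 to 116 CPM (median 82.2) in deficient oocytes and 21.5 to 124 CPM (median 69.3) in normal oocytes. ORAI1 ranged over 16.3 to 96.6 CPM (median 46.6) in deficient oocytes and 9.78 to 74.3 CPM (median 41.5) in normal oocytes. Their log2 differences over the sums were 0.08 (SE 0.21) for ITPR3 and -0.07 (SE 0.24) for ORAI1, neither passing. STIM1 had a median of 12.4 CPM over deficient oocytes and 11.3 CPM over normal oocytes, and STIM2 one of 6.28 CPM over deficient oocytes and 3.59 CPM over normal oocytes. Their log2 differences were -0.06 (SE 0.36) and -0.24 (SE 0.49). ITPR2 had a count in 8 of 14 deficient and 5 of 15 normal oocytes, and the same 8 and 5 after each oocyte was thinned to 706929 counts.

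For the effectors, CAMK2G had a median of 32.7 CPM over deficient oocytes and 35.4 CPM over normal oocytes, and CAMK2D one of 12.2 CPM over deficient oocytes and 10.6 CPM over normal oocytes. Their log2 differences were -0.28 (SE 0.25) and -0.33 (SE 0.42), with adjusted p = 1.00 for both (edgeR). PPP3CA gave 5 counts in all from 3 of 14 deficient oocytes and 0 counts from 15 normal oocytes, where a count of 0 allows up to 0.138 CPM over the group. It did not pass the filter on low counts. Without that filter it was tested and did not pass (adjusted p = 0.870, edgeR), nor did it with DESeq2 (adjusted p = 0.999).

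**Figure D2:**
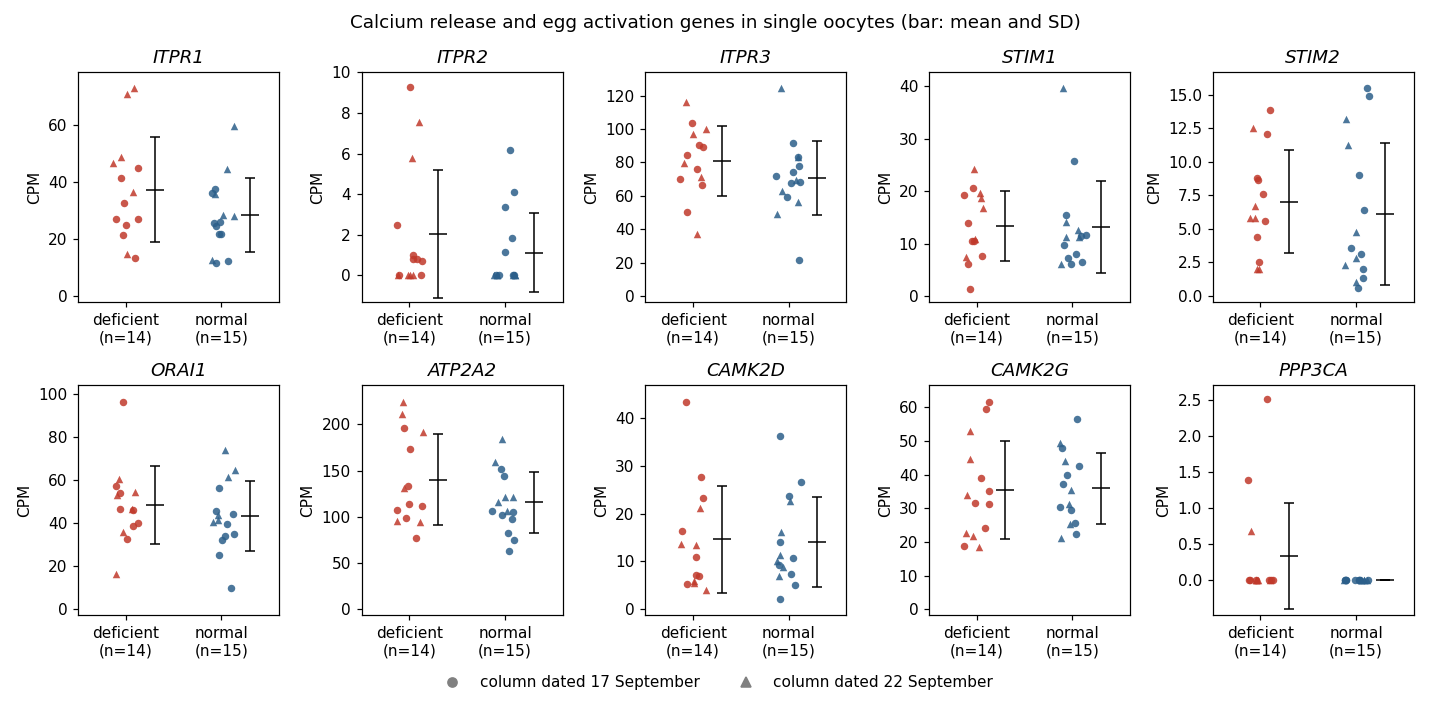
CPM of each gene in each single oocyte, deficient on the left and normal on the right of each panel, with the mean and SD as a bar and the column date as the symbol. The 2 states overlap in all 10 panels, and PPP3CA has a count in 3 deficient oocytes only.

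Whether the state difference itself depended on the library type was tested in a joint fit of the 11 pools and 7 sums. None of the 10 genes passed, nor did any of the 17643 genes tested (0% called), and 939 genes, 5.32%, but none of the 10, had an unadjusted p under 0.05 (edgeR). For ITPR1 the difference in single oocytes minus that in pools was -0.46 on the log2 scale (SE 0.31, unadjusted p = 0.143), and for ORAI1 it was 1.05 (SE 0.76, unadjusted p = 0.180). Leaving out 1 sample gave -0.67 to -0.27 for ITPR1, the last without normal sum 2, and 0.57 to 1.48 for ORAI1, the first without normal pool B2.

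Between library types, in contrast, most of the 10 genes passed the test. In single oocytes ORAI1, ITPR3, STIM1 and CAMK2G were higher than in pools, and ITPR1, ATP2A2, CAMK2D, STIM2 and PPP3CA were lower. That makes 9 of the 10, beside a background of 67.8% called over the 17643 genes tested with edgeR. The background was 35.2% for higher and 32.5% for lower in single oocytes, so that 4 and 5 of 10 lie near it. Extraction, kit and number of oocytes all differ between the sets and cannot be told apart. LOC102158401 took 53.8 to 71.3% of the counts of a sum and at most 0.0275% of a pool's. Every other gene's CPM is lowered by that share, so the CPM ranges below are not free of it. Its part in the gaps between library types was not tested, and the fitted differences use TMM factors. The median difference of all genes was 0.13 on the log2 scale with TMM scaling and 0.60 with RLE size factors, which called 7432 genes higher and 4613 lower, where TMM gave 6218 higher and 5739 lower.

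ORAI1 had 23.1 to 53.5 CPM in the 7 sums, with a median of 46.3, against 0.441 to 13.4 CPM in the 11 pools, with a median of 3.63. The sums lay above every pool, and the log2 difference, single over pooled, was 4.20 (SE 0.39, adjusted p = 1.38e-09, edgeR), or 4.08 above the median gene. ITPR3 had 49.0 to 96.8 CPM in the sums, with a median of 76.4, against 3.18 to 30.5 CPM in the pools, with a median of 9.67. Its groups did not overlap either, and the log2 difference was 3.14 (SE 0.29, adjusted p = 1.19e-09, edgeR).

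STIM1 had 7.65 to 17.4 CPM in the sums, with a median of 10.4, against 0.0691 to 8.76 CPM in the pools, with a median of 4.10. The highest pool lay above the lowest sums, and the log2 difference was 1.95 (SE 0.44, adjusted p = 0.00042, edgeR). CAMK2G had 26.6 to 47.4 CPM in the sums, with a median of 37.0, against 16.8 to 39.9 CPM in the pools, with a median of 26.2. The CPM ranges overlapped, and the log2 difference after TMM scaling was 0.93 (SE 0.19, adjusted p = 0.000102, edgeR).

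In the other direction, ITPR1 had 24.1 to 45.8 CPM in the sums, with a median of 33.9, against 109 to 247 CPM in the pools, with a median of 163. In CPM of all counts, LOC102158401 included, no sum reached a pool, and the log2 difference was -1.82 (SE 0.16, adjusted p = 7.30e-10, edgeR). ATP2A2 had 81.0 to 156 CPM in the sums, with a median of 130, against 343 to 850 CPM in the pools, with a median of 688, and differed by -1.85 on the log2 scale (SE 0.15, adjusted p = 1.63e-10, edgeR). CAMK2D had 4.84 to 19.3 CPM in the sums, with a median of 9.65, against 44.6 to 75.7 CPM in the pools, with a median of 61.5, and differed by -1.81 on the log2 scale (SE 0.23, adjusted p = 2.39e-07, edgeR). In CPM of all counts, LOC102158401 included, neither gene's groups overlapped. How many of all genes had sums and pools apart was not counted. The lack of overlap in these 2 genes, ITPR1, ITPR3 and ORAI1 is therefore not read as particular to them.

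STIM2 had 2.02 to 9.07 CPM in the sums, with a median of 5.44, against 7.87 to 22.8 CPM in the pools, with a median of 17.01, and only the lowest pool lay within the range of the sums. Its log2 difference of -0.95 (SE 0.28, adjusted p = 0.00505, edgeR) did not hold in every setting. It was -0.48 with RLE size factors (adjusted p = 0.120), -0.64 with each oocyte as a sample (adjusted p = 0.0609) and -0.70 in deficient samples alone (adjusted p = 0.234). Relative to the median gene it was -1.08 with TMM and -1.09 with RLE. PPP3CA summed to 0.258 CPM over the deficient and 0 over the normal single oocytes, against 1.21 CPM over the deficient and 0.635 CPM over the normal pools. It passed the joint test (adjusted p = 0.00844, edgeR) but not in deficient samples alone (adjusted p = 0.181), and no fold is given against a group at 0. ITPR2 did not pass, with a log2 difference of -0.25 (SE 0.68, adjusted p = 0.753, edgeR), which became 0.20 with RLE size factors.

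**Figure D3:**
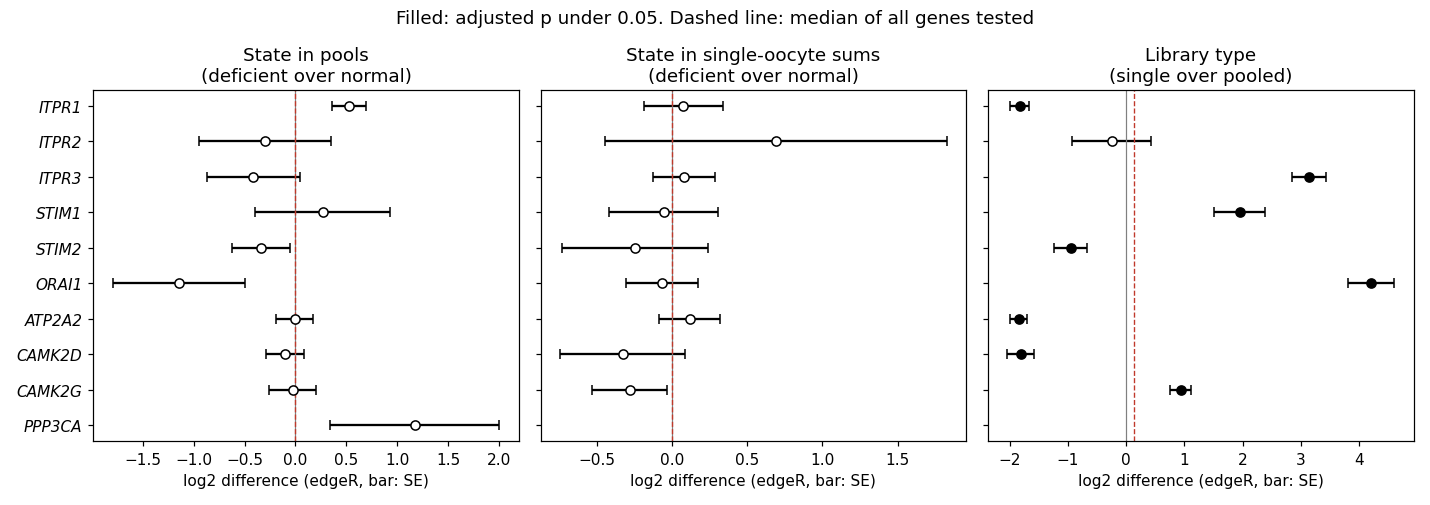
Log2 differences of each gene with their SE from edgeR, for state in pools, state in the sums of single oocytes and library type. Filled points, all in the right panel, passed an adjusted p of 0.05; the dashed line is the median of all genes tested, and PPP3CA is drawn for the pools only because the normal sums hold 0 counts.

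Genes of one family moved in opposite directions between library types, so the mix within families differed. Shares of the family's counts, which are not per length, are given as a description. ITPR1 took 24.7 to 35.2% of the IP3 receptor counts in the sums of single oocytes and 83.9 to 96.5% in the pools, while ITPR3 took 62.9 to 74.2% in the sums and 2.12 to 15.1% in the pools. STIM1 took 58.4 to 81.5% of the STIM counts in the sums and 0.870 to 45.7% in the pools. CAMK2D took 15.4 to 36.2% of the CaM kinase II counts in the sums and 59.5 to 75.7% in the pools, the rest being nearly all CAMK2G, since CAMK2A had 0 counts in every library and CAMK2B 1 count in 1 normal oocyte. These ranges did not overlap.

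The other families had 1 main member in both library types, or a main member outside the 10 genes. ORAI1 took at least 97.1% of the ORAI counts in the sums and 87.2% in the pools, and ATP2A2 at least 92.3% of the SERCA counts in the sums and 99.7% in the pools. PPP3CA took at most 3.17% of the calcineurin catalytic counts in the sums and 3.35% in the pools, the rest coming from PPP3CB and PPP3CC. PPP3CB averaged 30.5 ± 12.3 CPM and PPP3CC 25.7 ± 10.02 CPM in the pools (SD, n = 11). CaM kinase II genes resemble each other, as do the calmodulin genes below, and how reads that match several genes were counted is not given in the sources used here, so their split is uncertain.

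No share differed between states past the adjustment over 9 shares in each set. In pools ITPR1's share was 94.2 ± 3.08% over 5 deficient pools (SD) and 89.6 ± 4.10% over 6 normal pools (SD), with p = 0.0693 in a two-sided exact permutation test and 0.312 after adjustment. PPP3CA's share was 2.35 ± 1.14% in deficient pools and 1.01 ± 0.656% in normal pools, with an exact p = 0.0476 and 0.312 after adjustment. Over the sums each adjusted p was 0.914, and the smallest p that 35 splits allow is 0.0286.

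**Figure D4:**
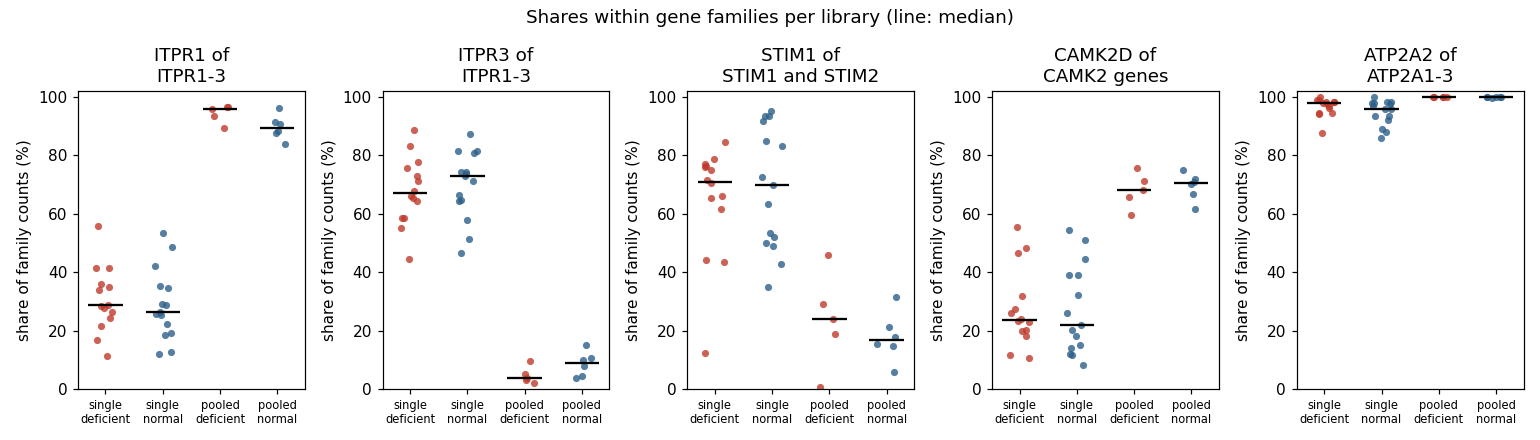
Share of each gene in the counts of its family, per library, with single oocytes on the left and pools on the right of each panel, deficient before normal, and the median as a line. ITPR1 and CAMK2D take most of their family's counts in pools and ITPR3 and STIM1 more of theirs in most single oocytes, while the states of one library type overlap.

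Over the 11 pools, 5 pairs of the genes were compared on log2 CPM with TMM scaling. ITPR1 and PPP3CA had a Pearson r of 0.635 (permutation p = 0.0225, adjusted 0.112) and a Spearman rho of 0.827 (permutation p = 0.00322, adjusted 0.0161). Without the 2 pools farthest from the ITPR1 median r was 0.513. Within the 6 A pools it was 0.726 (exact permutation p = 0.0583), and 0.0465 without 2. Leaving out the farthest pools narrows the ITPR1 range, so a lower r cannot show whether the relation rests on few pools. No r is given for the 5 B pools, which are fewer than 6, and both genes had higher means in deficient pools. With library totals in place of TMM, r was 0.847 (adjusted permutation p = 0.0013). For ITPR1 with ATP2A2, STIM1 with ORAI1, STIM1 with STIM2 and CAMK2D with CAMK2G, r was -0.200, 0.241, 0.241 and -0.00958, with a smallest permutation p of 0.470. Their rho values were -0.127, 0.445, 0.0636 and 0.0636, with a smallest permutation p of 0.173, and none passed after adjustment.

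Around these 10 genes, 11 lists of the pathway were read in the same fits, and none held a gene that passed between states in pools or in single oocytes. Of all 13540 genes tested in pools, 6747 were higher in deficient pools, and 5.36% had an unadjusted p under 0.05 (edgeR). Nothing particular to a list is read from its counts between states. ER lumen calcium binding proteins, which buffer stored calcium, had 7 of 8 tested genes higher in deficient pools, with a median log2 difference of 0.48 and 3 at an unadjusted p under 0.05. PDIA3, an ER thiol oxidoreductase, averaged 292 ± 80.4 CPM over the 5 deficient pools and 229 ± 61.2 CPM over the 6 normal pools (SD), and differed by 0.49 on the log2 scale (SE 0.18, adjusted p = 0.901, edgeR). In the sums the list had 3 of 9 genes higher, with a median of -0.05, beside 5948 of all 11964 genes tested.

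The list of IP3 receptor regulators and IP3 metabolism also holds the ryanodine receptors RYR1, RYR2 and RYR3. It had 5 of 7 tested genes higher in deficient pools, with a median of 0.18. ERP44, a luminal protein that inhibits the type 1 receptor, averaged 33.2 ± 15.6 CPM over the 5 deficient pools and 17.8 ± 4.36 CPM over the 6 normal pools (SD). The log2 difference was 1.01 (SE 0.28, unadjusted p = 0.00231, adjusted p = 0.690, edgeR). AHCYL1, which binds the receptor and competes with IP3, differed by 0.75 (SE 0.35, adjusted p = 0.921, edgeR).

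The other pathway lists had medians of -0.21 to 0.13 in pools. Of the genes tested in pools, 3 of 11 were higher in deficient pools for phosphoinositide and phospholipase C genes, 4 of 6 for plasma membrane entry, 3 of 6 for pumps and exchangers and 2 of 7 for calmodulin and CaM kinases. The counts were 4 of 8 for calcineurin partners, 7 of 11 for mitochondrial calcium genes, 3 of 6 for protein kinase C, 6 of 13 for cortical granule and zona genes and 6 of 12 for cell cycle exit. Among oocyte markers 5 of 10 were higher, with ZP3 at -0.998 (SE 0.37, adjusted p = 0.901, edgeR), and 4 of 6 cumulus markers tested were higher.

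Between library types the lists were counted against the background given above, and nothing particular to a list is read from its count. That background was 35.2% of all genes higher and 32.5% lower in single oocytes with TMM. RLE size factors called 7432 of all 17643 genes higher and 4613 lower. With TMM 45 of the 136 list genes tested were higher in single oocytes and 60 lower, with RLE size factors 54 were higher and 52 lower, and the 97 genes called by both kept their direction, among them each gene named below. Upstream of IP3, 8 of 16 phosphoinositide and phospholipase C genes were higher in single oocytes and 5 lower, with PLCG1, which cleaves the lipid that yields IP3, at 133 ± 38.1 CPM in the sums (SD, n = 7) and 39.1 ± 25.9 CPM in the pools (SD, n = 11). In the list of IP3 receptor regulators and IP3 metabolism, ryanodine receptors included, 3 of 8 were higher and 2 lower. ERP44 fell to 3.22 ± 1.90 CPM in the sums, against 24.8 ± 13.1 CPM in the pools (-2.43 on the log2 scale, SE 0.34, edgeR adjusted p = 8.57e-07).

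At the membrane, 0 of 6 entry genes were higher and 2 lower with TMM, and 2 were higher and 2 lower with RLE. TRPM7, a channel that carries calcium into mouse eggs, stood at 22.4 ± 3.19 CPM in the sums (SD, n = 7) and 203 ± 52.4 CPM in the pools (SD, n = 11). Of the pumps and exchangers 5 of 10 were higher and 3 lower, the plasma membrane pump ATP2B1 being lower, at -1.30 on the log2 scale (SE 0.19, edgeR adjusted p = 1.88e-06).

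CALM2 and CALM3, which encode the same calmodulin protein, moved in opposite directions. CALM2 was at 57.6 ± 10.21 CPM in the sums (SD, n = 7) and 333 ± 92.9 CPM in the pools (SD, n = 11), and CALM3 at 69.7 ± 15.5 CPM in the sums and 20.8 ± 10.9 CPM in the pools. Their log2 differences were -2.01 (SE 0.17) and 2.33 (SE 0.23), both past the threshold with edgeR. In the calmodulin and kinase list 3 of 10 were higher and 2 lower. Of the calcineurin partners 3 of 10 were higher and 6 lower, among them its regulator RCAN1 at -1.65 (SE 0.14, edgeR adjusted p = 1.62e-10) and its catalytic chain PPP3CB at -2.11 (SE 0.36, edgeR adjusted p = 1.59e-05).

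The 11 mitochondrial calcium genes tested had 3 higher and 8 lower in single oocytes with TMM, and 3 higher and 6 lower with RLE. Beside these, 67.8% of all genes were called with TMM, and 12045 of 17643 with RLE. MCU, the pore of the mitochondrial uniporter, was at -0.94 (SE 0.19), and its paralogue CCDC109B was at 1.74 (SE 0.16), both past the threshold with edgeR. Of ER lumen proteins 2 of 9 were higher and 6 lower, with CALR at 1.33 (SE 0.19) and HSP90B1 at -3.71 (SE 0.22). For protein kinase C the counts were 4 of 8 higher and 2 lower.

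Downstream, 4 of 13 cortical granule and zona genes were higher and 7 lower in single oocytes. ASTL, the protease that cleaves ZP2 after fertilisation in mouse, stood at 53.0 ± 15.2 CPM in the sums (SD, n = 7) and 3.47 ± 3.09 CPM in the pools (SD, n = 11). Cell cycle exit genes had 2 of 12 higher and 8 lower with TMM, and 4 higher and 8 lower with RLE. Called in either direction were 67.8% of all genes with TMM, and 12045 of 17643 with RLE. FBXO43, the inhibitor of the anaphase promoting complex that CaM kinase II marks for destruction in frog and mouse eggs, was at -2.08 (SE 0.17, edgeR adjusted p = 1.83e-10), and PTTG1, securin, at -5.30 (SE 0.22, edgeR adjusted p = 1.23e-15). Of the markers, 4 of 10 oocyte genes were higher and 5 lower, 4 of 10 cumulus genes were higher and 3 lower, and 0 of 3 blood genes were higher and 1 lower.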

How the data were processed

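Total RNA of 11 pools and 29 single oocytes was sequenced as 100 bp paired reads. The authors deposited raw gene counts in 1 table for the pools and 1 for the single oocytes. Per the submitters' processing notes the tools were FastQC, Trim Galore, TopHat2 2.0.14 and edgeR, with the build Sscrofa10.2; neither the counting tool nor its strand setting is given in the sources used here, so overlapping and antisense genes cannot be separated. A row with no gene name held 1.05 to 4.75% of a pool's counts and 0.648 to 8.15% of an oocyte's, and entered neither totals nor tests. Symbols of 7 list genes were matched through their gene numbers.

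Counts were tested with edgeR 4.0.16 (R 4.3.3): TMM scaling, filterByExpr, quasi-likelihood F test, Benjamini-Hochberg over all genes tested and a threshold of 0.05. SE is the log2 difference over the root of F. Oocyte counts were summed by state and first title number, since oocytes are not known to come from separate animals. In the sums, same-numbered samples deviated together (correlation 0.143, 0.220 and 0.165 for numbers 2, 3 and 4), so the block was read beside the result. Numbers 2 and 3 each hold a single column date in both states, so number and date cannot be told apart there. A joint fit of 11 pools and 7 sums gave the interaction and the library type. Shares were tested by exact permutation (462 and 35 splits) and correlations with 100000 resamples. Alternatives used RLE factors, no filter, limma-voom 3.58.1, DESeq2 1.42.0, blocks, covariates, other groupings of the oocytes and leaving out each library. The edgeR fits were also run on counts simulated from edgeR's own estimates, which checks the code only. It does not bear on small differences or on samples from shared animals.

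The genes named are the 10 members and, per list, up to 4 genes past the threshold by p, or the 2 of smallest p at a mean of at least 1 CPM; some are not reported here. The members and the 14 lists were chosen with earlier results of these data known. Counting error is the only error that the limit for a count of 0 (3 counts) covers.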

Additional observations from a re-analysis of the deposited data

Results flagged for a closer look

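Among 57 groups of 4 to 10 samples examined, 4 held a sample set apart from the rest by more than Dixon's 95% criterion allows. For independent groups of normally distributed values, chance sets apart about 1 group in 20. Family shares are capped at 100% and linked within a family, so that rate does not hold for them. PPP3CA was at 0.309 CPM in deficient pool A3, on 7 counts, where the other 4 deficient pools lay between 1.41 and 1.48 CPM. ORAI1 took 93.7% of the ORAI counts in deficient pool B2 and 100% in the other deficient pools, and 87.2% in normal pool B1, the lowest of the normal pools. ATP2A2 took 99.9% of the SERCA counts in deficient pool A3, the lowest of the deficient pools, whose median was 99.99%. The causes were not tested.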

How the results depend on the processing

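With other settings the number of genes called between states became 58 in pools (DESeq2). In single oocytes it became 4 (no filter), 2 (DESeq2), 2 (replicate block on 6 sums), 1 (each oocyte as a sample, with or without date) and 2 (17 September alone, chosen after seeing the data). For the interaction it became 6 (no filter) and 3 (each oocyte). None was one of the 10 genes, and no member was called for state in any setting. Pools with the same title label did not deviate together throughout (correlation -0.105 for A2, 0.127 for A3, 0.476 for B2, 0.0781 for B4; 3 of 4 closest to their own label), so the label is only a hint; the block on 8 pools called 0 genes. The blocks changed no other call.

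Log2 differences that turned sign were, in pools, ITPR2 0.12 and STIM1 -0.023 (limma-voom), STIM1 -0.10 and CAMK2G 0.0024 (replicate block), CAMK2G 0.0043 (the same 8 pools unblocked) and ATP2A2 0.034 (genes detected). In single oocytes they were ITPR3 -0.0378 (each oocyte), -0.0384 (with date) and -0.075 (22 September), and on 17 September ITPR1 -0.0065, ITPR3 -0.0017, STIM2 0.11 and ORAI1 0.35. For library type they were ITPR2 0.20 (RLE) and 0.44 (deficient only). Leaving out 1 library gave ranges that cross 0: in pools ITPR2 -0.55 to 0.21, ATP2A2 -0.14 to 0.090, CAMK2G -0.10 to 0.077; in sums ITPR1 -0.16 to 0.27, STIM1 -0.21 to 0.13, ORAI1 -0.26 to 0.13, ATP2A2 -0.016 to 0.19; for the interaction STIM2 -0.15 to 0.31, ATP2A2 -0.00037 to 0.22, CAMK2D -0.53 to 0.052; for library type ITPR2 -0.76 to 0.0050.

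Share differences (percentage points, deficient minus normal) that turned were, with each oocyte a sample, STIM1 -4.23, CAMK2D 0.390 and CAMK2G -0.301, and on 17 September ITPR1 -1.02, ITPR2 -0.403, ITPR3 1.42, STIM1 -10.8, CAMK2D 2.93 and CAMK2G -2.93. Leaving out 1 sample gave, in pools, ORAI1 -0.268 to 2.97, CAMK2D -3.16 to 0.888 and CAMK2G -0.888 to 3.16. In sums it gave ITPR1 -2.72 to 2.26, ITPR2 -0.265 to 1.03, ITPR3 -3.29 to 2.25, STIM1 -0.188 to 7.49, ORAI1 -0.698 to 0.542, CAMK2D -5.67 to 3.45 and CAMK2G -3.23 to 5.82. With library totals r was 0.269 for ITPR1 and ATP2A2, 0.424 for CAMK2D and CAMK2G and 0.847 for ITPR1 and PPP3CA. The causes were not tested. Among the members, PPP3CA and ITPR2 had the fewest counts in single oocytes, 5 and 64 in all. After thinning to 706929 counts per oocyte, ITPR2 still had a count in 8 deficient and 5 normal oocytes, as before. PPP3CA kept a count in 2 of the 3 deficient oocytes that had one. How far depth limits either gene was not tested.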
